A study of Mus musculus with 30 samples.

Results

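Intermediate progenitors are the dividing cells of the embryonic cortex that lie between radial glia and neurons, and the genes described here are 8 that mark or act in them: Eomes, Insm1, Dll1, Dll3, Mfng, Btg2, Gadd45g and Elavl4. Each is represented by the probe set, a group of short probes read as 1 value, that carries its symbol alone. Where several probe sets did so, the one with the highest mean was used. The members are 8 of 18194 genes measured on embryonic day E14.5, of 19938 measured on postnatal day P0.5, and of 16553 measured at both ages. RNA came from CD1 mice that were homozygous null for Tbr1 throughout the body (KO) or wild type (WT), with 3 KO and 3 WT arrays of E14.5 neocortex. At P0.5 there were 4 KO and 4 WT arrays from each of 3 brain regions, frontal, parietal and occipital. Sex is not labelled, and no label says whether arrays of 1 number share an animal, so each p-value measures the spread between these samples.

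In the developing cortex a radial glial cell can divide to give an intermediate progenitor, which switches on the T-box factor Eomes (also called Tbr2), divides again and gives neurons, many of which switch on the related factor Tbr1. A cell on this path displays the Notch ligand Dll1, which activates Notch on neighbouring cells and keeps them from differentiating. By birth the production of projection neurons is nearly over, and few intermediate progenitors are left beside the ventricle. In whole tissue, fewer cells of a type and less RNA per cell cannot be told apart.

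The 300 bases around 3 start sites are printed because Eomes and Gadd45g varied together between arrays, and Dll1 was 1 of 2 members called in any comparison. They run from 250 bases before to 50 bases after the start site and are RefSeq's, on build GRCm38.p6. Capitals mark the E-box, CANNTG, the letters that proneural factors of the basic helix-loop-helix family recognise; the letters read the same on both strands.
Eomes, plus strand, chr9:118477939-118478238: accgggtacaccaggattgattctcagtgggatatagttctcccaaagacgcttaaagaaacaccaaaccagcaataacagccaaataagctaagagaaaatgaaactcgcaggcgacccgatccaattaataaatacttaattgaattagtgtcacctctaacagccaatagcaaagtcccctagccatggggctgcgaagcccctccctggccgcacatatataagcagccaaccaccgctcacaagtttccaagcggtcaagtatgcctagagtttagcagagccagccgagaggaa
Gadd45g, plus strand, chr13:51846425-51846724: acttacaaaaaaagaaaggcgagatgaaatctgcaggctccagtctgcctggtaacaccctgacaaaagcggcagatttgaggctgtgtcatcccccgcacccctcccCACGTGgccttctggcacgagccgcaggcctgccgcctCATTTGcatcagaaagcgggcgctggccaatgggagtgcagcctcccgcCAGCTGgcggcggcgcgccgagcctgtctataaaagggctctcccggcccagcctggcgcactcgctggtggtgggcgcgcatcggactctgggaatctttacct
Dll1, minus strand, chr17:15376883-15377182: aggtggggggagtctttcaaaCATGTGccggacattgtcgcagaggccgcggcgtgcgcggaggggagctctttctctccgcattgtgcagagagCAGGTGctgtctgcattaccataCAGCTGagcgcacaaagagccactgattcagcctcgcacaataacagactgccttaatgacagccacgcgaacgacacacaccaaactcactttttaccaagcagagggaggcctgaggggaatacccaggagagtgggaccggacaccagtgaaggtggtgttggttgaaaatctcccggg

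The Gadd45g and Dll1 windows hold 3 E-boxes each and the Eomes window holds 0. E-boxes are common: 72.3% of the 32851 promoter windows of the same length hold at least 1. The core of a T-box site, GGTGTG, searched on both strands, occurs in the Dll1 window, outside its E-boxes, and in 19% of all windows. The core of an Rbpj site, TGGGAA, through which Notch acts on its targets, occurs in the Gadd45g window, also outside its E-boxes, and in 25.6% of all windows. In all, 6 of the 8 members had a promoter entry; Insm1 and Mfng were not among them.

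The tissue was checked against 6 neocortical markers measured at each stage. At E14.5 the log2 signals were 8.27 to 9.02 for Emx1, 7.97 to 9.31 for Emx2, 8.02 to 9.99 for Neurod6, 8.86 to 10.58 for Neurod2, 9.33 to 11.17 for Bcl11b and 5.35 to 6.43 for Slc17a7, on arrays whose medians were 5.12 to 5.15. At P0.5 they were 8.20 to 8.65 for Emx1, 6.72 to 7.89 for Emx2, 10.84 to 12.09 for Neurod6, 9.80 to 10.36 for Neurod2, 9.55 to 10.12 for Bcl11b and 8.33 to 9.16 for Slc17a7, with array medians of 7.42 to 7.52. Slc17a7, a transporter of mature glutamatergic neurons, lay closest to the array medians at E14.5, and Emx2, a factor of cortical progenitors, spanned them at P0.5. Tbr1 had log2 signals of 8.69, 7.23 and 7.57 in KO E14.5 neocortex, against 9.36, 8.90 and 9.11 in WT. Every KO array was below every WT array, and KO replicate 1 was the nearest to WT. At P0.5 the KO level of Tbr1 was lower by 0.63 in frontal, 0.58 in parietal and 0.84 in occipital tissue (log2, SE 0.12, n = 4 each, limma, adjusted p = 0.00189, 0.00887 and 0.000293). Where these probe sets lie relative to the disrupted part of Tbr1 is not given in the sources used here.

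At E14.5, the stage at which intermediate progenitors are plentiful, none of the 8 members differed between KO and WT neocortex by the test used throughout: limma, two-sided, adjusted over all genes of the comparison, called at an adjusted p under 0.05. That test called 0 of 18194 genes, or 0%, so the members' count says nothing particular about them. Without adjustment, 1048 genes and 1 of the 8 members had p under 0.05. The median KO minus WT difference of the members was -0.00 (log2), against 0.06 over all genes.

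Among the transcription factors, Eomes had log2 signals of 10.21, 10.73 and 10.81 in KO neocortex, against 10.98, 10.69 and 10.78 in WT. The groups overlapped, KO replicate 1 was the lowest array, and the difference of -0.23 (SE 0.19) had a 95% interval from -0.68 to 0.21. Insm1, a zinc finger factor that promotes the formation of intermediate progenitors, had 10.61, 9.69 and 10.02 in KO neocortex, against 10.41, 9.73 and 9.81 in WT. In both genotypes replicate 1 was the highest array, and the difference was 0.12 (95% interval -0.54 to 0.78).

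The Notch genes were as close between genotypes. Dll1 had log2 signals of 9.08, 9.32 and 8.98 in KO neocortex, against 8.88, 9.23 and 8.79 in WT, a difference of 0.16 (95% interval -0.28 to 0.61). Dll3, a divergent ligand that acts inside the cell and does not activate Notch on neighbours, differed by -0.00 (95% interval -0.42 to 0.41). Mfng, a fringe enzyme that adds sugar to Notch and changes which ligands it answers, differed by 0.02 (95% interval -0.47 to 0.50). For these 3 genes the KO and WT arrays overlapped.

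Btg2, which slows the cell cycle and marks progenitors about to make neurons, differed by -0.05 (95% interval -0.63 to 0.54). Gadd45g, a growth arrest gene, differed by -0.00 (95% interval -0.46 to 0.46). Elavl4, also known as HuD, is an RNA-binding protein of young neurons, and was the member with the widest difference. It had log2 signals of 6.31, 7.04 and 7.22 in KO neocortex, against 8.26, 7.43 and 7.83 in WT. Every KO array was below every WT array.

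The KO minus WT difference of Elavl4 was -0.98 (SE 0.31, n = 3 each), 1.97-fold lower in KO, with an adjusted p = 0.85 over all genes, so it was not called. The other probe sets of Elavl4, which were not used for the gene's value, differed by -1.17 and -1.48. In each the KO and WT arrays did not overlap either, with gaps of 0.25 and 0.007. In the last of them KO replicate 1 was the lowest array, at 4.04. Elavl4 was 1 of 8 members whose groups did not overlap, while 11.2% of all genes had groups that did not overlap. Without KO replicate 1, the lowest array, the difference was -0.71 with an adjusted p = 0.659.

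Some of the marker lists differed in mean between genotypes at E14.5. The mean of the 5 meningeal and fibroblast genes was 9.75, 10.10 and 8.15 (log2) in KO neocortex, against 7.56, 7.69 and 7.74 in WT, and all 5 had a higher mean in KO. The mean of the 6 choroid plexus genes was 7.28, 7.13 and 7.32 in KO, against 5.71, 6.42 and 6.72 in WT. The mean of the 6 neocortical genes was 8.64, 8.26 and 8.50 in KO, against 9.15, 8.77 and 8.78 in WT. The mean of the 5 genes of olfactory bulb projection neurons was 6.87, 7.03 and 7.03 in KO, against 7.33, 7.31 and 7.04 in WT. Each of these 4 lists separated the genotypes, the last by a very narrow gap. The meningeal and choroid plexus lists were higher in KO and the neocortical and olfactory bulb lists lower. The radial glia, dividing-cell, GABAergic, striatal, hippocampal, Cajal-Retzius, blood vessel, red blood cell and Y-linked lists overlapped between genotypes. No gene of any list was called. The part of the 4 separating lists in the Elavl4 difference was not tested.

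**Figure D1:**
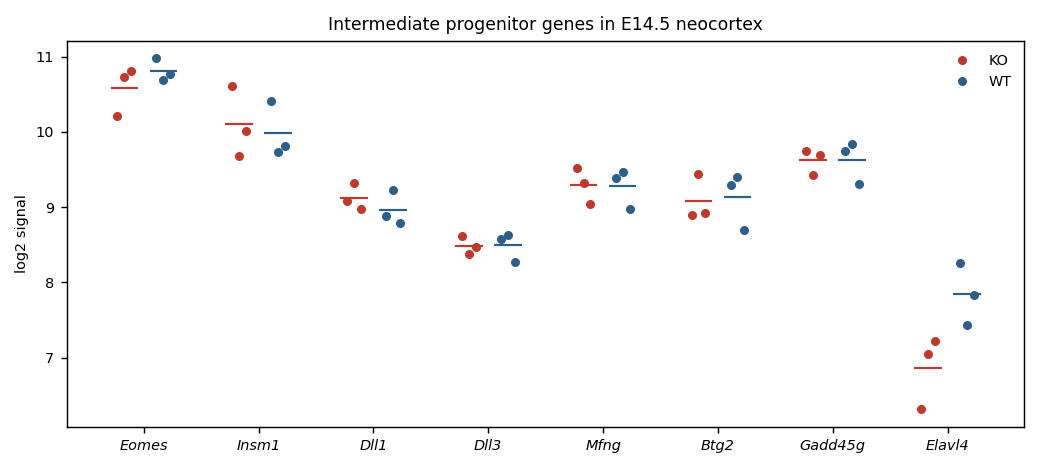
Log2 signal (vertical axis) of the 8 members on each E14.5 array, with 3 KO arrays in red to the left of 3 WT arrays in blue and a line at each mean. Signals of different genes come from different probes and are not comparable. Elavl4 is the member whose KO points (6.31 to 7.22) all lie below its WT points (7.43 to 8.26).

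At P0.5 again none of the 8 members was called between KO and WT, in any region or over the regions. The share of all genes called was 7.52% in frontal tissue, 1.81% in parietal tissue, 1.34% in occipital tissue, and 7.46% over the regions. The members with p under 0.05 before adjustment were 1, 0, 2 and 1 of 8, against 5490, 1859, 2153 and 3836 of 19938 genes. The value over the regions averaged arrays of the same genotype and number, giving 4 KO and 4 WT values. The members' median difference was -0.00 in frontal, -0.04 in parietal, 0.14 in occipital tissue and 0.03 over the regions, against -0.03, -0.01, 0.01 and -0.01 over all genes.

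The frontal comparison was also a comparison of arrays that differed in Y-linked genes. The mean of 3 Y-linked genes was 5.09 to 5.99 (log2) in KO frontal tissue, against 8.99 to 9.15 in WT. Arrays of both kinds occurred in KO parietal (5.36 to 9.11), WT parietal (5.76 to 9.25) and KO occipital tissue (5.88 to 9.32), but not in WT occipital tissue (9.20 to 9.44). In frontal tissue genotype and this difference cannot be told apart from the 8 arrays alone. Each KO value over the regions averaged arrays of both kinds. All 3 Y-linked genes were called lower in KO over the regions too, with a median difference of -1.83, and 0 of 3 were called in parietal or occipital tissue, with medians of -1.04 and -0.95 and 0 at p under 0.05.

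**Figure D2:**
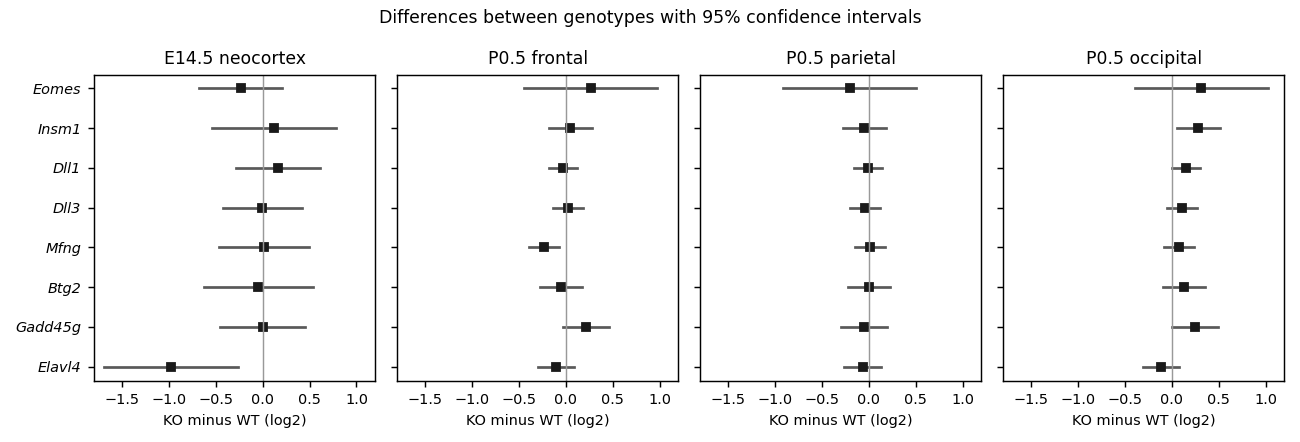
KO minus WT difference in log2 signal (horizontal axis) of each member at E14.5 (n = 3 each) and in the 3 P0.5 regions (n = 4 each); squares are the fitted differences and bars their 95% confidence intervals from limma. No member was called. The Elavl4 interval at E14.5 (-1.70 to -0.26) and the Mfng interval in frontal tissue (-0.39 to -0.07) exclude 0 before adjustment, as do those of Insm1 and Gadd45g in occipital tissue.

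Eomes was the most variable member at P0.5. In frontal tissue it had log2 signals of 7.86, 6.71, 7.79 and 7.43 in KO, against 8.29, 6.64, 6.66 and 7.14 in WT. In parietal tissue it had 7.46, 9.04, 8.14 and 7.97 in KO, against 7.72, 8.30, 9.18 and 8.21 in WT. In occipital tissue it had 8.35, 7.93, 7.83 and 7.79 in KO, against 8.33, 7.21, 7.68 and 7.43 in WT.

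The genotypes overlapped in each region. The KO minus WT differences of Eomes were 0.26 in frontal, -0.20 in parietal and 0.32 in occipital tissue, each with SE 0.34, and the adjusted p-values were 0.62, 0.97 and 0.794. Its standard deviation within groups was 0.57, higher than in 99.8% of genes, while the median gene had 0.14. From the lowest to the highest of the 24 arrays the signal of Eomes spanned 5.80-fold, and a difference of the sizes above is small against that spread. By mean level the groups ran, from high to low, WT parietal, KO parietal, KO occipital, WT occipital, KO frontal and WT frontal, and the arrays of each neighbouring pair overlapped.

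Insm1 had log2 signals of 9.30, 9.20, 9.38 and 9.18 in KO occipital tissue, against 9.17, 8.87, 8.97 and 8.91 in WT. Every KO array was above every WT array, by a narrow gap, and the difference was 0.28 (SE 0.11, adjusted p = 0.302). Gadd45g had 7.69, 7.57, 7.49 and 7.75 in KO occipital tissue, against 7.37, 7.38, 7.45 and 7.32 in WT, again without overlap. Its difference was 0.25 (SE 0.12, adjusted p = 0.456). The differences of Insm1 were 0.05 in frontal and -0.05 in parietal tissue, and that of Gadd45g in parietal tissue was -0.05.

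Insm1 and Gadd45g were thus 2 of 8 members without overlap between genotypes in occipital tissue, where 6.26% of all genes had none. The members without overlap were 0 of 8 in frontal tissue and 0 of 8 in parietal tissue, where 12.9% and 7.41% of all genes had none. In occipital tissue 7 of the 8 members had a higher mean in KO, Elavl4 being the exception, and in parietal tissue 7 of 8 had a lower mean in KO, Mfng being the exception. None of those differences was called. In parietal tissue the 8 differences lay between -0.20 and 0.01.

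Mfng came nearest to a call. It had log2 signals of 7.12, 7.18, 7.46 and 7.31 in KO frontal tissue, against 7.59, 7.49, 7.44 and 7.48 in WT. KO replicate 3 lay within the WT range and the other KO arrays below it. The difference was -0.23 (SE 0.08, adjusted p = 0.0678), 1.17-fold lower in KO. Without KO replicate 3 it was -0.29, and called with an adjusted p = 0.0313; with the level of the Y-linked genes as a covariate it was -0.23, with an adjusted p = 0.489.

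In parietal and occipital tissue the Mfng differences were 0.01 and 0.08. Gadd45g in frontal tissue had 7.60, 7.32, 7.84 and 7.70 in KO, against 7.83, 7.21, 7.23 and 7.36 in WT. WT replicate 1 stood with the KO arrays, and the difference was 0.21 (SE 0.12, adjusted p = 0.245). With the level of the Y-linked genes as a covariate it was 0.28 (limma, adjusted p = 0.615). Without WT replicate 1, and with no covariate, it was 0.35, and called with an adjusted p = 0.0357. The same WT array had the highest frontal value of Eomes, 8.29.

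Over the regions Gadd45g had a difference of 0.14 (SE 0.05, adjusted p = 0.168), and Eomes one of 0.13 (SE 0.11, adjusted p = 0.608). The other differences over the regions were 0.09 for Insm1, 0.04 for Dll1, 0.03 for Dll3, -0.05 for Mfng, 0.02 for Btg2 and -0.09 for Elavl4. The remaining members stayed close between genotypes. Dll1 differed by -0.03 in frontal, -0.01 in parietal and 0.15 in occipital tissue (SE 0.07), Dll3 by 0.02, -0.04 and 0.11 (SE 0.08) and Btg2 by -0.05, -0.00 and 0.13 (SE 0.11). Elavl4, which had the widest difference at E14.5, differed by -0.10, -0.07 and -0.12 (SE 0.10) in the same regions. Its adjusted p-values at P0.5 were 0.467, 0.963 and 0.717.

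**Figure D3:**
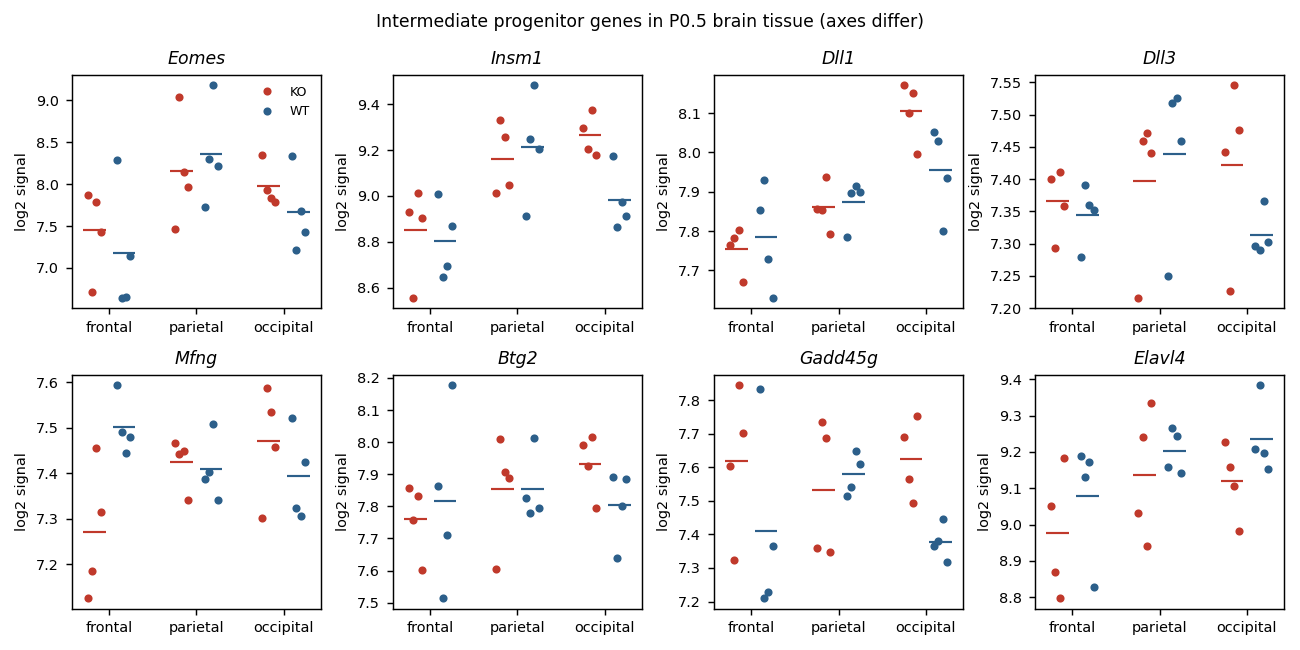
Log2 signal (vertical axes, which differ between panels) of the 8 members on each P0.5 array by region, with 4 KO arrays in red to the left of 4 WT arrays in blue and a line at each mean. Eomes spans 6.64 to 9.18 across the arrays, and the KO and WT points of Insm1 and of Gadd45g are apart in occipital tissue alone.

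Between regions, 2 members were called, both in KO mice and both lower in frontal than in occipital tissue. Dll1 had log2 signals of 7.77, 7.78, 7.80 and 7.67 in KO frontal tissue, against 8.17, 8.10, 8.15 and 7.996 in KO occipital tissue. The groups were well apart, and Dll1 fell by 0.35 on the log2 scale in frontal tissue (SE 0.07, n = 4 each, adjusted p = 0.00525), 1.27-fold lower. Insm1 had 8.93, 8.56, 9.01 and 8.90 in KO frontal tissue, against 9.30, 9.20, 9.38 and 9.18 in KO occipital tissue. These groups did not overlap either, and Insm1 fell by 0.41 in frontal tissue (SE 0.11, adjusted p = 0.0358), 1.33-fold lower. The share of all genes without overlap was not computed for differences between regions, so a lack of overlap there has no background beside it.

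In KO mice 2 of 8 members were thus called between frontal and occipital tissue, both lower in frontal tissue, while 3.22% of all genes were called and 1.76% were called lower. All 8 members had a lower mean in KO frontal than in KO occipital tissue, with differences from -0.53 (Eomes, adjusted p = 0.537) to -0.01 (Gadd45g, adjusted p = 0.99). Between these lay Dll3 with -0.06, Elavl4 with -0.14, Btg2 with -0.17 and Mfng with -0.20. The Y-linked level differed between these groups too, as given above. With it as a covariate the Dll1 difference was -0.35 with an adjusted p = 0.0671, and that of Insm1 -0.47 with an adjusted p = 0.111, so neither was called. The Insm1 call was also lost when 7 of the 8 arrays were left out in turn, all but KO frontal replicate 3, with differences from -0.44 to -0.32 and adjusted p-values from 0.0505 to 0.146.

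In WT mice the same contrast called 0 of 8 members, against 6.03% of all genes; 1 member, Dll1, and 5328 genes had p under 0.05. Dll1 had log2 signals of 7.85, 7.93, 7.73 and 7.63 in WT frontal tissue, against 8.05, 8.03, 7.80 and 7.93 in WT occipital tissue. The groups overlapped, and the difference was -0.17 (SE 0.07, adjusted p = 0.144). Insm1 differed by -0.18 (SE 0.11, adjusted p = 0.30). The other WT differences were -0.48 for Eomes, 0.03 for Dll3, 0.11 for Mfng, 0.01 for Btg2, 0.03 for Gadd45g and -0.16 for Elavl4.

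A call in KO and none in WT does not show that the genotypes differ, and the contrast of the contrasts tests it. The frontal minus occipital difference in KO, less that in WT, was -0.18 for Dll1 (SE 0.10, adjusted p = 0.309) and -0.24 for Insm1 (SE 0.16, adjusted p = 0.37). It was widest relative to its error for Mfng, at -0.31 (SE 0.11, adjusted p = 0.176): Mfng was lower in frontal than in occipital tissue by its means in KO (-0.20) and higher in WT (0.11). None of the 8 members was called, against 0.416% of all genes, and 1 member and 4017 genes had p under 0.05. The values of the other members were -0.05 for Eomes, -0.09 for Dll3, -0.18 for Btg2, -0.04 for Gadd45g and 0.01 for Elavl4.

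The corresponding contrasts for frontal minus parietal and for parietal minus occipital called 0 of 8 members, against 0.01% and 0.01% of all genes, with 1 member each and 1620 and 784 genes at p under 0.05. The first gave 0.47 for Eomes, 0.09 for Insm1, -0.02 for Dll1, 0.06 for Dll3, -0.25 for Mfng, -0.05 for Btg2, 0.26 for Gadd45g and -0.04 for Elavl4. The other gave -0.52 for Eomes, -0.33 for Insm1, -0.16 for Dll1, -0.15 for Dll3, -0.06 for Mfng, -0.13 for Btg2, -0.30 for Gadd45g and 0.05 for Elavl4. The member below 0.05 was Mfng in the first and Insm1 in the other.

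Between frontal and parietal tissue, 0 of 8 members were called in KO and 0 of 8 in WT, against 0.236% and 0.171% of all genes, with 1 and 2 members and 1617 and 2568 genes at p under 0.05. The widest difference of any member at P0.5 was here: in WT, Eomes in frontal tissue was lower than in parietal tissue by its means, with a difference of -1.17 (SE 0.34, adjusted p = 0.20). WT frontal replicate 1, at 8.29, lay among the parietal arrays and the other frontal arrays below them. Without it the difference was -1.54, and called with an adjusted p = 0.0291. In KO the difference of Eomes was -0.70 (SE 0.34, adjusted p = 0.618).

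Insm1 followed Eomes in this contrast, with differences of -0.31 in KO (SE 0.11, adjusted p = 0.359) and -0.41 in WT (SE 0.11, adjusted p = 0.159). Its KO groups did not overlap, by a very narrow gap: the highest frontal array had 9.0124 and the lowest parietal array 9.0129. In KO the other differences were -0.10 for Dll1, -0.03 for Dll3, -0.16 for Mfng, -0.09 for Btg2, 0.09 for Gadd45g and -0.16 for Elavl4. In WT they were -0.09 for Dll1, -0.09 for Dll3, 0.09 for Mfng, -0.04 for Btg2, -0.17 for Gadd45g and -0.12 for Elavl4. None of these reached p under 0.05.

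Between parietal and occipital tissue, 0 of 8 members were called in KO and 0 of 8 in WT, against 0.351% and 0.451% of all genes, with 1 member each and 1403 and 1527 genes at p under 0.05. The member below 0.05 in KO was Dll1, which had 7.86, 7.85, 7.94 and 7.79 in parietal tissue, against 8.17, 8.10, 8.15 and 7.996 in occipital tissue. These groups did not overlap, and the difference was -0.24 (SE 0.07, adjusted p = 0.212). The WT groups of Gadd45g did not overlap either, with 7.52 to 7.65 in parietal and 7.32 to 7.45 in occipital tissue. In KO the other differences were 0.18 for Eomes, -0.10 for Insm1, -0.03 for Dll3, -0.05 for Mfng, -0.08 for Btg2, -0.09 for Gadd45g and 0.02 for Elavl4. In WT they were 0.69 for Eomes, 0.23 for Insm1, which was the WT member below 0.05, -0.08 for Dll1, 0.12 for Dll3, 0.02 for Mfng, 0.05 for Btg2, 0.20 for Gadd45g and -0.03 for Elavl4. By mean level Dll1 ran, from high to low, KO occipital, WT occipital, WT parietal, KO parietal, WT frontal and KO frontal, with overlap between the arrays of each neighbouring pair.

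**Figure D4:**
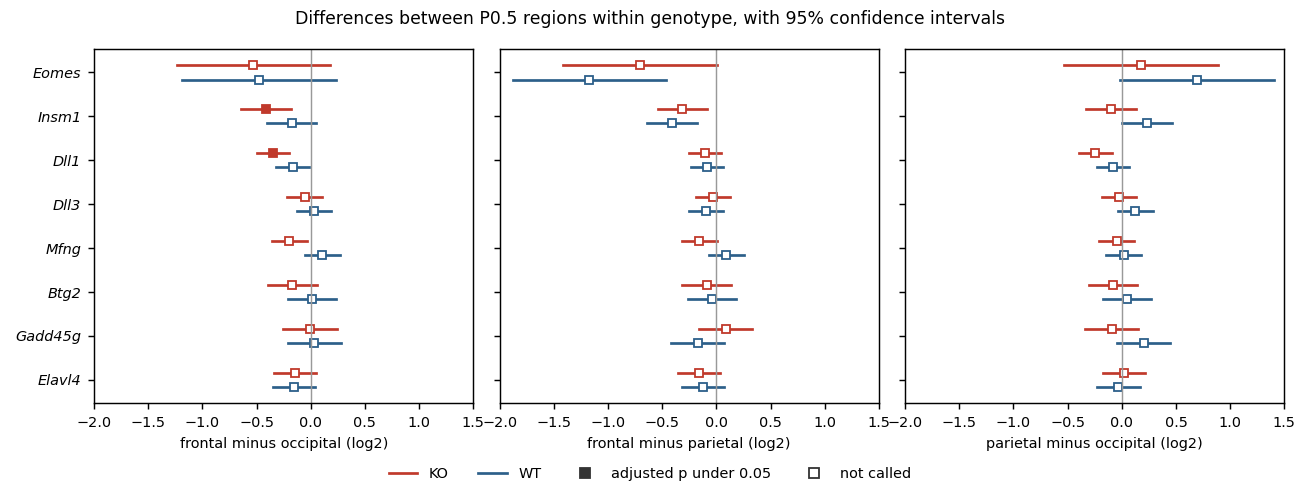
Differences in log2 signal (horizontal axes) between P0.5 regions for each member, with KO in red above WT in blue; squares are fitted differences (n = 4 arrays each), bars their 95% confidence intervals, and filled squares adjusted p under 0.05. The filled squares are Insm1 and Dll1 in KO frontal against occipital tissue, and Eomes has the widest intervals.

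Some members moved together from array to array within the groups. After the mean of each group was subtracted, Eomes correlated with Insm1 across the 24 P0.5 arrays with Pearson's r = 0.89 and Spearman's rho = 0.91 (permutation tests, adjusted p = 1e-04 and 4e-04 over the 20 relations with Eomes computed). Without the 2 arrays farthest from the median of Eomes, WT frontal replicate 1 and KO parietal replicate 2, r was 0.90. It was 0.83 within the 12 KO arrays and 0.93 within the 12 WT arrays. The Y-linked level of KO replicate 1 was 5.09 in frontal, 9.11 in parietal and 9.32 in occipital tissue. Every other KO number, and WT replicate 2, also mixed low and high levels. The arrays of such a number are thus unlikely to come all from 1 animal. Some arrays of 1 number may still share an animal, which would make them fewer than 24 independent samples.

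Eomes and Gadd45g correlated with r = 0.76 and rho = 0.75 (permutation tests, adjusted p = 0.00345 and 0.0041), and with r = 0.62 without those 2 arrays. Within KO r was 0.75 and within WT 0.78. For Btg2, r was 0.56 (permutation test, adjusted p = 0.0936) and rho 0.66 (adjusted p = 0.0131), so the measures fell on different sides of 0.05. For Dll1, Dll3, Mfng and Elavl4, r lay between 0.20 and 0.33, with adjusted permutation p-values from 0.271 to 0.64. Of the 28 pairs of members, 6 had r above 0.5 and the median r was 0.22.

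Marker lists of progenitors varied with Eomes in the same way. The mean level of 10 radial glia genes correlated with Eomes with r = 0.83 and rho = 0.86 (permutation tests, adjusted p = 1e-04 and 5e-04), and with r = 0.77 without the 2 farthest arrays. The mean level of 9 dividing-cell genes did so with r = 0.80 and rho = 0.75 (adjusted p = 0.000133 and 0.00247), and with r = 0.71 without them. Within KO arrays r was 0.82 for both lists, and within WT arrays it was 0.85 and 0.79. The list for dentate gyrus and hippocampus, where intermediate progenitors persist after birth, had r = 0.51 and rho = 0.60 (adjusted p = 0.0182 and 0.0131), with r = 0.76 within KO and 0.24 within WT.

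The neocortical list had r = -0.11 and the Y-linked list r = -0.13 (permutation tests, adjusted p = 0.754 each). The remaining marker lists had adjusted p-values of 0.0936 or more. Among them the GABAergic and ganglionic eminence list had r = 0.51 and rho = 0.46 (permutation tests, adjusted p = 0.0936 and 0.148). Its r was 0.85 within KO, 0.27 within WT and 0.24 without the 2 farthest arrays. The source of this variation was not tested. With the dividing-cell level as a covariate, the WT frontal minus parietal difference of Eomes was -1.04 and was called, with an adjusted p = 0.0303, while no KO against WT difference of a member was called.

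**Figure D5:**
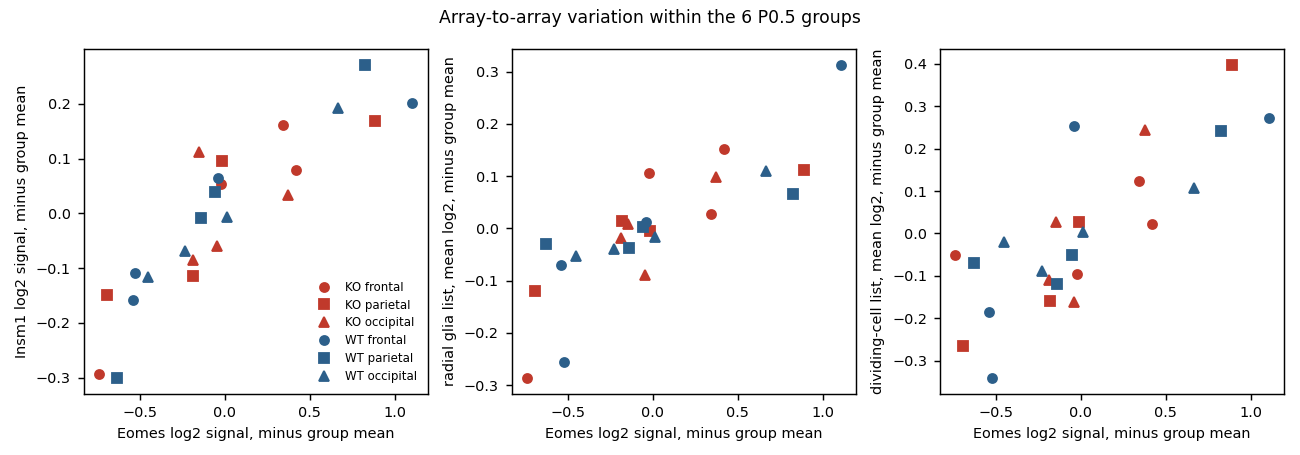
Each of the 24 P0.5 arrays by its Eomes log2 signal less the mean of its group (horizontal axes) and by Insm1, the mean of 10 radial glia genes or the mean of 9 dividing-cell genes, each less its group mean (vertical axes, log2); KO arrays are red and WT arrays blue, and marker shape gives the region. All 3 rise with Eomes, with r = 0.89, 0.83 and 0.80.

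The 5 genes outside the list whose array-to-array pattern was most like that of Eomes over the 24 arrays, after group means were subtracted, were Ezr (r = 0.93), Tfap2c (0.91), H2az2 (0.88), Kif11 (0.86) and Pax6 (0.85). Ezr codes for a linker between membrane and cytoskeleton, Kif11 for a motor of the mitotic spindle, and Pax6 for a transcription factor of radial glia. Over the 6 group means the most alike were Tbc1d1, Kcnn2, Galnt16, Zc3h4 and Prr15, with r from 0.98 to 0.99. These values describe the same arrays and carry no test.

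Of 17 measured further genes of intermediate progenitors and neurogenesis, 1 was called between genotypes in frontal tissue, 1 in parietal tissue, 0 in occipital tissue and 1 over the regions, and in each case it was Neurod1, a proneural factor of newborn neurons. Neurod1 had log2 signals of 9.09, 9.44, 9.33 and 9.30 in KO frontal tissue, against 8.65, 7.57, 6.92 and 7.10 in WT. Every KO array was above every WT array, and Neurod1 rose by 1.73 (SE 0.27, adjusted p = 0.000138). In parietal tissue it had 9.01, 9.50, 8.74 and 9.18 in KO, against 7.22, 7.68, 8.20 and 7.54 in WT, and rose by 1.45 (SE 0.27, adjusted p = 0.0025).

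Over all genes, 4.7% rose and 2.81% fell in KO frontal tissue, 1.06% rose and 0.747% fell in parietal tissue, 0.762% rose and 0.577% fell in occipital tissue, and 4.71% rose and 2.75% fell over the regions. Of the 9 other Notch receptors and ligands, 1 rose over the regions: Dner, a ligand-like protein of neurons, by 0.17 (adjusted p = 0.0417). Of 11 genes that process Notch or its ligands, 2 rose in frontal tissue, 1 in parietal tissue and 1 over the regions. Pofut1, which adds the fucose that fringe enzymes such as Mfng extend, rose by 0.23 in frontal and 0.26 in parietal tissue (SE 0.06, adjusted p = 0.0148 and 0.00993).

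Of 12 Notch nuclear factors and targets, 3 were called in frontal tissue, 1 in parietal tissue, 0 in occipital tissue and 3 over the regions. Hes1, a target through which Notch holds cells as progenitors, had 8.13, 8.35, 7.94 and 8.22 in KO parietal tissue, against 7.58, 7.65, 7.84 and 7.70 in WT, and rose by 0.47 (SE 0.11, adjusted p = 0.0281). Gfap, a filament of astrocytes, rose by 0.79 in frontal tissue (SE 0.20, adjusted p = 0.0156). It had 8.54, 7.30, 7.57 and 8.71 in KO, against 7.39, 7.15, 7.26 and 7.14 in WT. KO replicate 2 lay within the WT range, and KO replicates 1 and 4 were the highest. The coactivators Maml2 and Maml3 fell by 0.27 and 0.31 in frontal tissue (adjusted p = 0.0272 and 0.0261). Of 14 relatives of the members, Tbr1 was the 1 called in each region. At E14.5 none of the genes of these lists was called.

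Of 10 genes of radial glia, the cells from which intermediate progenitors arise, 6 rose in KO over the regions, with a median of 0.24. Within the regions 1 rose in frontal tissue (Fabp7), 1 in parietal tissue (Hes1) and 0 in occipital tissue, with 5, 2 and 3 at p under 0.05. The Y-linked genes differed over the regions as given above. Pax6 rose by 0.34 (SE 0.06, adjusted p = 0.0037). Of 9 dividing-cell genes, 0 were called over the regions, with a median of -0.08 and 2 at p under 0.05. Of 10 genes of GABAergic cells and the ganglionic eminence, 0 were called, with a median of 0.02 and 0 at p under 0.05.

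Between frontal and occipital tissue of KO mice, the contrast in which Dll1 was called, 3 of 9 other Notch receptors and ligands and 2 of 12 Notch nuclear factors and targets were called, all lower in frontal tissue, while 1.76% of all genes were called lower. Notch1 had 8.74, 8.47, 8.91 and 8.71 in KO frontal tissue, against 9.29, 9.17, 9.18 and 9.07 in KO occipital tissue, without overlap, and fell by 0.47 (SE 0.11, adjusted p = 0.00923). Notch2 fell by 0.67 (adjusted p = 0.0407), Dner by 0.54 (adjusted p = 0.00579), Nrarp, a feedback inhibitor induced by Notch, by 0.41 (adjusted p = 0.00653), and Id4 by 0.59 (adjusted p = 0.0414). Of 11 genes that process Notch or its ligands 0 were called, with 2 at p under 0.05. Of the 17 further genes of intermediate progenitors and neurogenesis 4 were called: Pou3f2, Kif26b and Rprm rose by 1.06, 0.69 and 0.46 in frontal tissue (adjusted p = 0.00109, 0.000608 and 0.0477), and Unc5d fell by 0.57 (adjusted p = 0.00114). Kif26b was called in WT mice too, with a difference of 0.74 (limma, adjusted p = 0.000258). The others of this list called in WT were Cbfa2t2 at -0.33 and Neurod1 at -0.90 (limma, adjusted p = 0.0413 and 0.0496).

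Other lists moved with the Notch genes between frontal and occipital tissue of KO mice. Of 10 radial glia genes 2 were called, both lower in KO frontal tissue: Slc1a3, a glutamate transporter, fell by 0.74 and Sox9 by 0.30 (adjusted p = 0.0139 and 0.0174). The mean of the list was 9.32 to 9.76 in KO frontal tissue, against 9.78 to 9.96 in KO occipital tissue. The mean of the 6 dentate gyrus and hippocampus genes was 8.52 to 8.66 in KO frontal tissue, against 8.82 to 9.19 in KO occipital tissue. Among them Lmo1, Fibcd1 and Zbtb18 were called, at -0.60, -0.34 and 0.26 (limma, adjusted p = 0.0257, 0.0422 and 0.0224). The mean of the 5 olfactory bulb genes was 8.42 to 8.58 in KO frontal tissue, against 8.60 to 8.75 in KO occipital tissue. Of the 3 Y-linked genes 2 were called lower, with a median of -2.82. The part of these lists in the Notch calls was not tested. In WT mice 1 of the 9, Notch2, and 0 of the 12 were called in the same contrast, with 1 of the 12 at p under 0.05. The radial glia genes called in WT were Fabp7, Pax6 and Sox2, all lower in frontal tissue. Their frontal minus occipital differences were -0.70, -0.60 and -0.56 (limma, adjusted p = 0.00476, 0.0276 and 0.0417). The mean of the hippocampal list was 8.55 to 8.67 in WT frontal tissue, against 8.80 to 8.96 in WT occipital tissue. That of the olfactory bulb list was 8.22 to 8.37, against 8.47 to 8.62. The contrast of the contrasts called 0 of the 9 and 0 of the 12 genes, with 1 and 3 at p under 0.05.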

How the data were processed

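The authors deposited log2 signals, 1 per probe set and array; per the submitters' processing notes, Affymetrix Expression Console 1.1 and RMA were used, with the role of each not given in the sources used here. They were not normalized again. Per the labels' protocol all RNA went to Gene 1.0 ST arrays, but the E14.5 probe set names are of an older 3' array type, so E14.5 and P0.5 had separate fits and no level was set across them. Probe sets were named from the platform annotation: 34958 of 45101 had 1 symbol at E14.5 and 21789 of 35557 at P0.5. Precision is limited by the number of arrays; array medians were 5.12 to 5.15 and 7.42 to 7.52.

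Groups came from the titles and genotype labels. Differences were tested with limma 3.58.1 in R 4.3.3 (eBayes with intensity trend, Benjamini-Hochberg adjustment over all genes); the 6 P0.5 groups shared 1 fit. The procedure was tested on simulated data. Correlation p-values used 100000 permutations. All 8 members are given in each comparison, and up to 6 called genes of a related list are named. The members and lists were chosen with earlier results of these data known. Same-numbered KO and WT arrays deviated together at E14.5 (r = 0.13 to 0.44 over genes, each above 0.1). No label pairs them, and with 3 arrays a group these values do not establish a pairing. At P0.5 each r was above 0.1 for WT parietal and occipital tissue alone (0.12 to 0.28). Alternatives covered the probe set, a filter on dim genes, centring, the trend, the groups fitted, the replicate block, covariates and each array left out.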

Additional observations from a re-analysis of the deposited data

Results flagged for a closer look

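In 4 of the 48 combinations of member and P0.5 group, 1 of the 4 arrays lay far from the other 3 relative to the range of the group; chance gives about 1 in 20. Dll3 had a log2 signal of 7.2161 in KO parietal replicate 1, below the other KO parietal arrays at 7.4412 to 7.471. It also had 7.3661 in WT occipital replicate 3, above the others at 7.29 to 7.303. Dll1 had 7.7847 in WT parietal replicate 1, below the others at 7.897 to 7.9146. Elavl4 had 8.8275 in WT frontal replicate 4, below the others at 9.1303 to 9.1876.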

How the results depend on the processing

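Across the processing alternatives, 963 of 968 member differences kept their direction where called and their side of the threshold, and 29 that were not called changed sign. The 2 members called between KO frontal and KO occipital tissue became 1 (Dll1) with array medians subtracted, 0 once the Y-linked mean entered the fit, and 1 (Dll1) with a replicate block within genotype, the last added after seeing the data. The causes were not tested. The 0 members called between WT frontal and parietal tissue became 1 (Eomes) with the dividing-cell level as a covariate, also added after seeing the data. With 1 array left out, the count ranged from 1 to 2 between KO frontal and occipital tissue, from 0 to 1 between WT frontal and parietal tissue, and from 0 to 1 between KO and WT frontal tissue; in the other 11 comparisons it was 0 throughout. With the replicate number as a block across genotypes, Elavl4 at E14.5 had a difference of -0.98 (limma, adjusted p = 0.598). Unlike the block within genotype above, this block changed no call of a member at either stage. The E14.5 intervals given above come from the fit without this block. With it the SE was 0.12 for Insm1, 0.13 for Dll1 and Mfng, and 0.16 for Dll3 and Btg2. It was 0.18 for Eomes and Gadd45g and 0.32 for Elavl4. With 3 or 4 arrays a group, differences the size of the Eomes intervals cannot be resolved.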
